A study of Mus musculus with 30 samples.

Results

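Cohesin, its loaders and its release factors are described here by the RNA level of 10 genes, out of 48709 genes counted in every library. The genes were taken by name, not by a rule on measured values, though with earlier results of these data known. They are the ring subunits Smc1a, Smc3 and Rad21 and the alternative subunits Stag1 and Stag2. With them come the loaders Nipbl and Mau2, and the release factor Wapl with its partners Pds5a and Pds5b. All 10 passed the filter on low counts in each of the 5 tissues. The RNA came from 5 tissues of adult C57BL/6 mice (spleen, quadriceps muscle, liver, kidney and brain), 3 wild type (WT) and 3 Ctcf haploinsufficient (Ctcf+/-), with 3 libraries per tissue and genotype and 30 libraries in all. Ctcf+/- animals lack the function of a single Ctcf allele and are called Ctcf het below, and the labels name no treatment. The sex, the age beyond adult and the way the allele was made are not given in the sources used here. The comparison of genotypes asks how tissues of these animals differ when Ctcf is reduced, and the 15 WT libraries also give the level of each gene by tissue.

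Cohesin is a ring-shaped complex that embraces DNA. It is loaded by the Nipbl and Mau2 proteins, extrudes chromatin into loops until it meets the DNA-binding protein Ctcf, and is taken off by Wapl acting with Pds5a or Pds5b. The same ring holds sister chromatids together from replication until division, so it is needed both by dividing cells and by resting cells of adult tissues.

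Total counts per library ran from 49.8 M to 131.6 M (M, mega), and each of the 10 genes had between 723 and 29618 counts in a library. Ctcf itself was lower in every Ctcf het library than in every WT library of the same tissue, at 65.3% of the WT mean in spleen, 67.2% in muscle, 63.4% in liver, 61.4% in kidney and 62.1% in brain, in CPM (counts per M counts of the library). The defining markers of each labelled tissue were present in it, among them Snap25, Umod, Alb and Ckm. Markers of proliferation (14 genes, all detected) summed to between 1484 and 3623 CPM in the spleen libraries and to between 47.34 and 210.5 CPM in the other 24. In spleen, WT replicate 1 and Ctcf het replicate 2 lay below the other 4 libraries for 6 of the members. These 2 libraries also deviated together from their group means over genes at large (r = 0.764). The share of all genes lying below in both is not given here. The main spleen results are also given without these 2 libraries, a choice made after seeing the data. Nothing in the labels ties a library to a named animal, so the p-values measure the spread between these libraries.

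Levels between genes and tissues are given as RPKM, that is CPM per kilobase, which divides by the summed length of a gene's exons, with library sizes adjusted by the trimmed mean of M-values (TMM) over all 30 libraries. This length is the union of all annotated exons, 19335 bases for Pds5a and 3604 for Rad21, so a gene with long rarely used exons reads too low. The other lengths lie between these. On GRCm38, the build of the count tables, Smc1a lies on chrX:152016428-152062694 (plus strand), Smc3 on chr19:53600398-53645833 (plus), Rad21 on chr15:51962605-51991760 (minus), Stag1 on chr9:100597798-100959375 (plus) and Stag2 on chrX:42149317-42277185 (plus). Nipbl lies on chr15:8291225-8444463 (minus), Mau2 on chr8:70016123-70042734 (minus), Wapl on chr14:34673928-34747983 (plus), Pds5a on chr5:65605721-65698273 (minus) and Pds5b on chr5:150673739-150810690 (plus). Counting used exons and ignored strand, and exons of other genes covered 1.93% of the exonic bases of Pds5a and 0.338% of those of Stag2. The paralogue pairs Stag1 and Stag2, and Pds5a and Pds5b, shared no 50-base stretch of transcript, and at most 1.64% of the 50-base stretches of any member, those of Mau2, occurred in another gene.

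The 3 ring subunits were highest in spleen and differed by smaller steps among the other tissues. Rad21, the subunit that closes the ring, had the highest RPKM of the 10 genes in each tissue, 88.3% to 97.1% of tested genes lying below it. In WT brain its level was 25.1, 22.6 and 27.2 RPKM in replicates 1 to 3, in kidney 35.3, 37.6 and 34.4, in liver 18.6, 20.01 and 17.9, in muscle 20.9, 22.2 and 23.2, and in spleen 50.4, 68.8 and 41.4. The spleen libraries thus lay above all others, kidney came next, and brain and muscle overlapped. Brain and muscle were not called different by edgeR's quasi-likelihood test (log2 difference 0.09 ± 0.15 SE, adjusted p = 0.605). Brain minus kidney was -0.46 ± 0.15 (adjusted p = 0.0142 by edgeR) and kidney minus spleen -0.55 ± 0.15 (adjusted p = 0.00471), so kidney lay above brain and below spleen.

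Smc1a and Smc3 encode the pair of ATPase arms of the ring. Smc3 was at 16.1 ± 2.80 RPKM in WT spleen (SD, n = 3), 7.12 ± 0.140 in brain, 5.98 ± 0.329 in kidney, 5.79 ± 0.489 in liver and 5.58 ± 0.175 in muscle. Kidney, liver and muscle were not called different from each other for Smc3, with adjusted p between 0.469 and 0.825 by edgeR, and brain was called higher than each of them. Smc1a ranked differently, at 23.9 ± 3.93 RPKM in spleen, 14.3 ± 1.88 in liver, 12.4 ± 0.932 in brain, 9.81 ± 0.428 in kidney and 8.38 ± 0.559 in muscle. Of the neighbours in that order, liver and brain (adjusted p = 0.407 by edgeR) and kidney and muscle (adjusted p = 0.573) were not called different. The ratio of Smc1a to Smc3 RPKM within a library was 2.46 in WT liver (geometric mean) and between 1.49 and 1.74 in the other tissues.

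**Figure D1:**
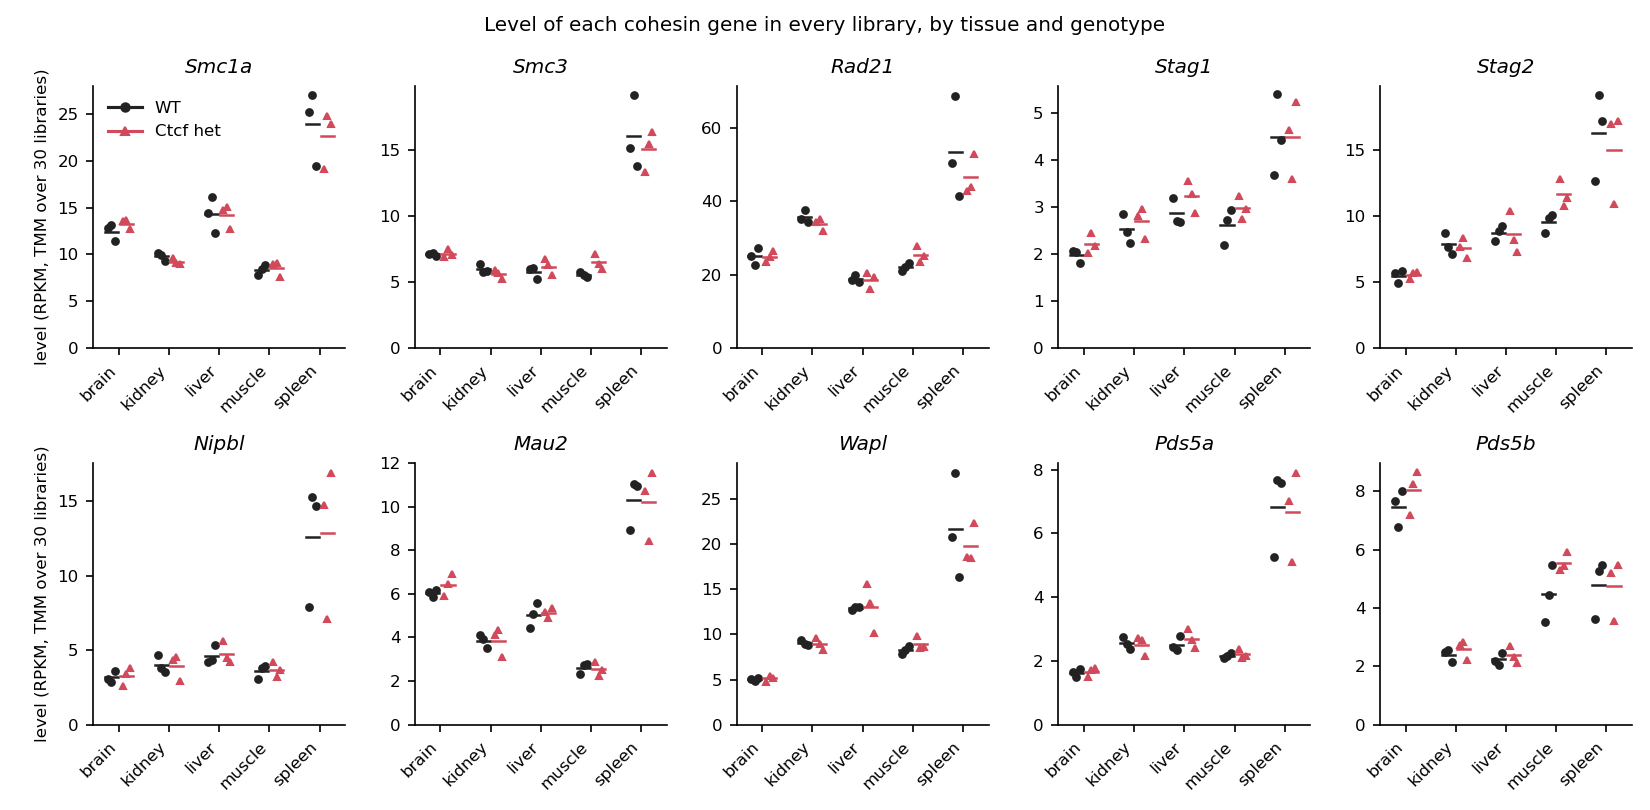
Level of each of the 10 genes in every library (RPKM, TMM over 30 libraries, linear axis from 0), by tissue, with WT as black circles, Ctcf het as red triangles and short lines at the group means of 3 libraries. Spleen is the highest tissue for 9 genes and brain for Pds5b, and the 2 genotypes lie close together in each tissue.

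The order of tissues depends on how libraries are scaled. In liver and muscle, the 10 genes with most counts held 22% to 30.6% of a library's total, and 5.28% to 13% elsewhere. Scaling by total counts instead of TMM moved the median log2 difference of all tested genes from 0.149 to 1.24 between brain and liver, from 0.192 to 1.45 between brain and muscle, from 0.0794 to 1.07 between kidney and liver, and from 0.219 to 1.38 between kidney and muscle. Orders of brain or kidney against liver or muscle are therefore relative to the typical gene. Under total counts, brain lay above liver for Smc1a by 0.98 and kidney above liver for Smc1a by 0.48, against the order given above. For Smc3, total counts put kidney above muscle by 1.13, where edgeR with TMM gave -0.03 and no call (adjusted p = 0.825). Spleen levels did not change order in this way: 36 differences of spleen from a single other tissue were tested for the 9 genes other than Pds5b, and spleen was higher in all 756 values from 21 alternative fits. All but 1 of these passed the threshold, the exception being Stag2 in muscle against spleen when Ctcf het libraries took the place of WT.

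Stag1 and Stag2 occupy the same position on the ring, 1 per complex, and Stag2 was the more abundant RNA in each of the 30 libraries. Stag1 was at 2.06, 2.04 and 1.81 RPKM in WT brain, 2.86, 2.47 and 2.24 in kidney, 3.197, 2.71 and 2.69 in liver, 2.19, 2.72 and 2.93 in muscle, and 3.67, 5.39 and 4.43 in spleen. Spleen was thus above all others, and kidney, liver and muscle overlapped and were not called different by edgeR (adjusted p between 0.306 and 0.935). Stag2 was at 5.67, 4.96 and 5.87 RPKM in brain, 8.77, 7.68 and 7.13 in kidney, 8.10, 8.91 and 9.30 in liver, 8.72, 9.87 and 10.1 in muscle, and 12.7, 19.2 and 17.2 in spleen. Brain had the lowest mean for both, though brain and kidney were not called different for Stag1 (adjusted p = 0.0975 by edgeR). Liver was called different neither from kidney nor from muscle for Stag2 (adjusted p = 0.459 and 0.119). Under total counts brain lay above liver and muscle, by 0.63 and 0.78 for Stag1 and by 0.49 and 0.39 for Stag2, and kidney above liver and muscle, by 0.83 and 0.98 for Stag1 and by 0.85 and 0.75 for Stag2.

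A ratio within a library needs no scaling. The mean ratio of Stag2 to Stag1 RPKM was 3.68-fold in WT muscle, 3.63 in spleen, 3.12 in kidney, 3.06 in liver and 2.78 in brain. On the log2 scale the WT libraries covered 1.28 to 1.69 in brain and 1.34 to 1.79 in liver, ranges that hold the kidney values of 1.62 to 1.67, and muscle and spleen overlapped at 1.79 to 1.99 and 1.79 to 1.96.

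The loaders Nipbl, which drives loading and loop extrusion, and Mau2, its partner protein, behaved differently outside spleen. Nipbl was at 3.08, 2.87 and 3.57 RPKM in WT brain, 4.67, 3.78 and 3.54 in kidney, 4.19, 4.33 and 5.35 in liver, 3.04, 3.797 and 3.94 in muscle, and 7.89, 15.3 and 14.7 in spleen. No pair of the 4 tissues other than spleen was called different for Nipbl by edgeR (adjusted p between 0.0655 and 0.982), and every spleen library lay above all others. Mau2 was at 10.3 ± 1.19 RPKM in spleen (SD, n = 3), 6.04 ± 0.159 in brain, 5.04 ± 0.573 in liver, 3.84 ± 0.307 in kidney and 2.61 ± 0.243 in muscle, and all of its tissues were called different from each other. The Nipbl to Mau2 ratio was 1.37-fold in WT muscle, 1.18 in spleen, 1.04 in kidney, 0.916 in liver and 0.524 in brain, with every WT brain library below every WT library of the other tissues. Without spleen WT replicate 1 the spleen ratio was 1.36. Under total counts brain exceeded muscle for Nipbl by 1.01, and kidney exceeded liver by 0.78 for Nipbl and by 0.61 for Mau2.

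Wapl, which opens the ring, was at 21.7 ± 5.83 RPKM in WT spleen (SD, n = 3), 12.9 ± 0.190 in liver, 9.03 ± 0.296 in kidney, 8.28 ± 0.438 in muscle and 5.02 ± 0.198 in brain. Kidney and muscle were not called different for Wapl (log2 difference -0.01 ± 0.15 SE, adjusted p = 0.973 by edgeR), and the other neighbours in that order were. Under total counts brain exceeded muscle by 0.47, and kidney exceeded liver by 0.49 and muscle by 1.16. Set against the loader, the Wapl to Nipbl ratio was 1.59-fold in brain, 2.28 in kidney and 2.81 in liver, and 2.32 and 1.75 in muscle and spleen. The spleen value covers 3 libraries at log2 ratios of 1.40, 0.87 and 0.16, a wider range than in any other tissue, and it was 1.43-fold without WT replicate 1, the library with the highest ratio.

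Pds5a and Pds5b were the paralogue pair whose ratio differed most between tissues, and Pds5b was the 1 gene of the 10 that was not highest in spleen. Both encode large proteins that bind Rad21 and serve release by Wapl as well as stable cohesion. Pds5b was at 7.66, 6.78 and 8.005 RPKM in WT brain, 2.48, 2.55 and 2.15 in kidney, 2.18, 2.06 and 2.47 in liver, 3.52, 4.44 and 5.48 in muscle, and 3.62, 5.27 and 5.47 in spleen. Each brain library lay above all 12 others. Brain exceeded kidney by 1.70 ± 0.19 SE on the log2 scale (adjusted p = 1.27e-06 by edgeR), liver by 1.81 ± 0.19, muscle by 0.66 ± 0.18 (adjusted p = 0.00491) and spleen by 0.73 ± 0.18 (adjusted p = 0.00204). These 4 differences kept their direction and passed the threshold in all 84 values from the alternative fits, which lay between 0.50 and 2.90. Muscle and spleen were not called different for Pds5b (adjusted p = 0.741 by edgeR), nor were kidney and liver (adjusted p = 0.635).

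Pds5a was at 1.64, 1.497 and 1.75 RPKM in WT brain, 2.76, 2.52 and 2.38 in kidney, 2.43, 2.33 and 2.77 in liver, 2.08, 2.15 and 2.26 in muscle, and 5.25, 7.66 and 7.58 in spleen. Brain, the highest tissue for Pds5b, was thus the lowest for Pds5a, and kidney, liver and muscle were not called different from each other (adjusted p between 0.567 and 0.858 by edgeR). Under total counts the place of brain changed for Pds5a: it lay above liver by 0.53 and above muscle by 0.78. For Pds5b, total counts put kidney above muscle by 0.13, and muscle minus spleen at -1.29.

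Within a library, Pds5b RPKM was 4.595-fold that of Pds5a in WT brain and 2.04-fold in muscle, but 0.936 in kidney, 0.889 in liver and 0.699 in spleen. The log2 ratio was 2.22, 2.18 and 2.20 in the WT brain libraries and -0.54, -0.54 and -0.47 in the WT spleen libraries, so the difference between these tissues was larger than the spread between libraries. WT muscle covered 0.76, 1.05 and 1.28. These ratios depend on the exon lengths of the 2 genes, but their differences between tissues do not, except where tissues use different exons, which gene counts do not show.

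**Figure D2:**
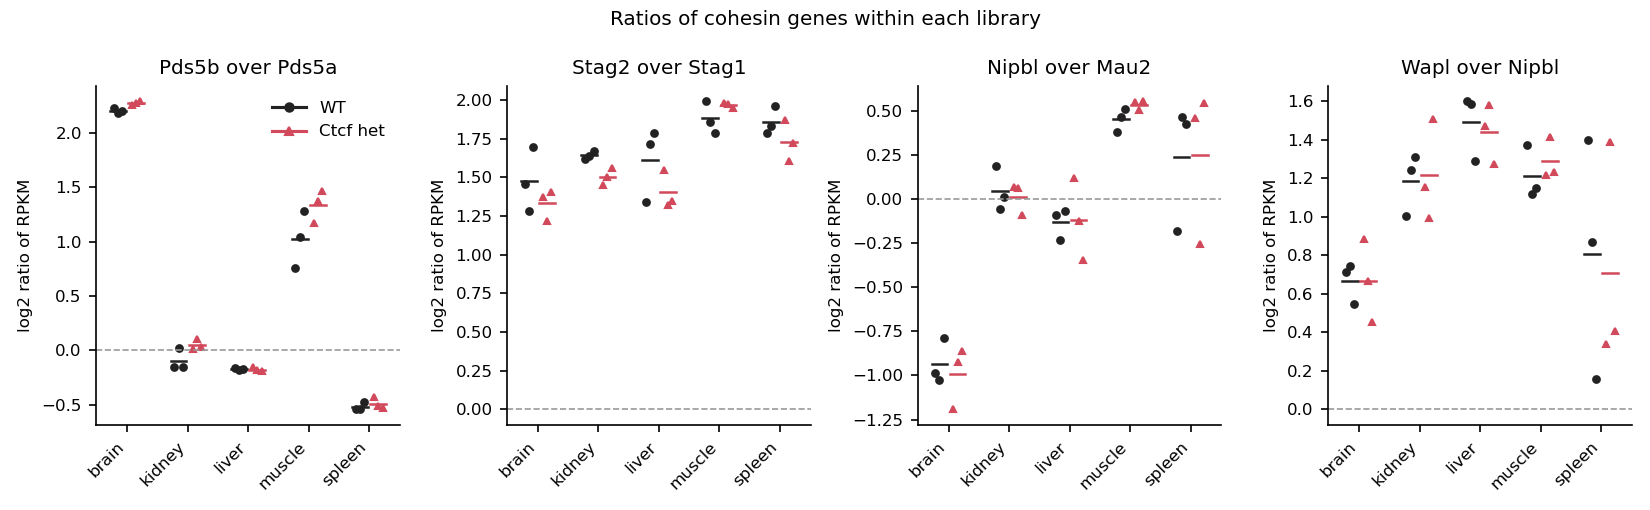
Log2 ratio of the RPKM of 2 genes within each library, for 4 pairs, by tissue, with WT as black circles, Ctcf het as red triangles and lines at the means of 3 libraries. Pds5b over Pds5a spans from 2.20 in WT brain to -0.52 in WT spleen, and Nipbl over Mau2 is lowest in brain.

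The promoters of this pair are shown because brain was the highest tissue for Pds5b and, with TMM, the lowest for Pds5a. RefSeq (GRCm38.p6) gave a start-site window for 7 of the 10 genes, and none was matched for Rad21, Stag2 and Nipbl. Lower-case letters below run 5′ to 3′ on the gene's strand, stop before the first annotated transcript, and carry motif matches in capitals. The Pds5a stretch is chr5:65698274-65698486 (minus strand) and the Pds5b stretch chr5:150673577-150673738 (plus strand).
Pds5a: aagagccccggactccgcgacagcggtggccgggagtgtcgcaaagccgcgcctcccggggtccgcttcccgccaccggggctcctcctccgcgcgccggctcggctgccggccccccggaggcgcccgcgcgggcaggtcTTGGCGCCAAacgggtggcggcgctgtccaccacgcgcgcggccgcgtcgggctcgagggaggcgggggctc
Pds5b: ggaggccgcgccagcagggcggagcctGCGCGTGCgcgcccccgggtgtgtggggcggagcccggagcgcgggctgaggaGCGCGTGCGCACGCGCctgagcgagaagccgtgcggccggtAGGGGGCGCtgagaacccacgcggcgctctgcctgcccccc

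The 7 motifs were chosen with the promoters of these genes in view and searched on both strands in the 250 bases before each start site. The capitals in Pds5a are 2 overlapping matches, 109 and 106 bases before its start site, to an E2F half-site (TTGGCGC), which 1.97% of 32851 windows of that length held and which Pds5b held too. The capitals in Pds5b are 3 matches to the NRF1 core (GCGCNTGC, 7.86% of windows), of which the later 2 adjoin, and 1 match to a CTCF core (AGGGGGCGC), 129 bases before its start site. That CTCF core was held by 1.11% of windows and, among the 7 members with a window, by Pds5b alone. Between the printed stretch and its start site, Pds5b also held a CCAAT box (CCAAT, 33.85% of windows) and a YY1 site (GCCATNTT, 3.91%). Over the members, the CCAAT box and the NRF1 core were each held by Smc1a, Stag1, Wapl and Pds5b, the YY1 site by Stag1 and Pds5b, an E2F site (TTTCCCGC, 0.89% of windows) by Stag1, and an ETS site (CCGGAAG, 6.91%) by none. A match is a description of letters, and binding was not measured.

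Over the 15 WT libraries, each of the 10 genes differed between tissues, as did 98% of the genes tested (edgeR, adjusted p under 0.05). Against the mean of the 4 other tissues, spleen was called higher for 9 members and lower for none, beside 38% of tested genes called higher and 37.7% called lower. The differences were 1.05 for Smc1a, 1.33 for Smc3, 1.04 for Rad21, 0.79 for Stag1, 0.9998 for Stag2, 1.65 for Nipbl, 1.23 for Mau2, 1.30 for Wapl and 1.57 for Pds5a on the log2 scale. Under total counts they were larger, from 1.49 for Stag1 to 2.36 for Nipbl, and moved by over 1.5 times for Smc1a (1.73), Smc3 (2.01), Rad21 (1.72), Stag1, Stag2 (1.70), Mau2 (1.92) and Wapl (1.98). Pds5b differed by 0.31 (adjusted p = 0.0570), by 0.46 (adjusted p = 0.00866) without spleen WT replicate 1, and by 0.30 (adjusted p = 0.0483) with a replicate block. Over the 21 alternatives its difference lay between 0.20 and 1.02, over 1.5 times the main value at the highest, and it was called under 7. The median of the members was 1.14, against -0.21 over all tested genes, a median that total counts moved to 0.461. In a bulk tissue, more cells of a kind and more RNA per cell cannot be told apart, and the part of the proliferation markers, which were higher in the same libraries, was not tested.

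By pairs of tissues, brain differed from kidney for 8 members (71.4% of tested genes), from liver for 8 (73.2%), from muscle for 8 (72.3%) and from spleen for 10 (79.8%). Kidney differed from liver for 4 members (54.1%), from muscle for 4 (64.4%) and from spleen for 10 (75.5%). Liver differed from muscle for 5 (64.2%) and from spleen for 10 (72.9%), and muscle differed from spleen for 9 (75.2%), the exception being Pds5b. Without brain WT replicate 2, brain differed from kidney for 4 members instead of 8, and without kidney WT replicate 2, kidney differed from liver for 2 instead of 4. The shares of all tested genes in those fits are not given here.

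**Figure D3:**
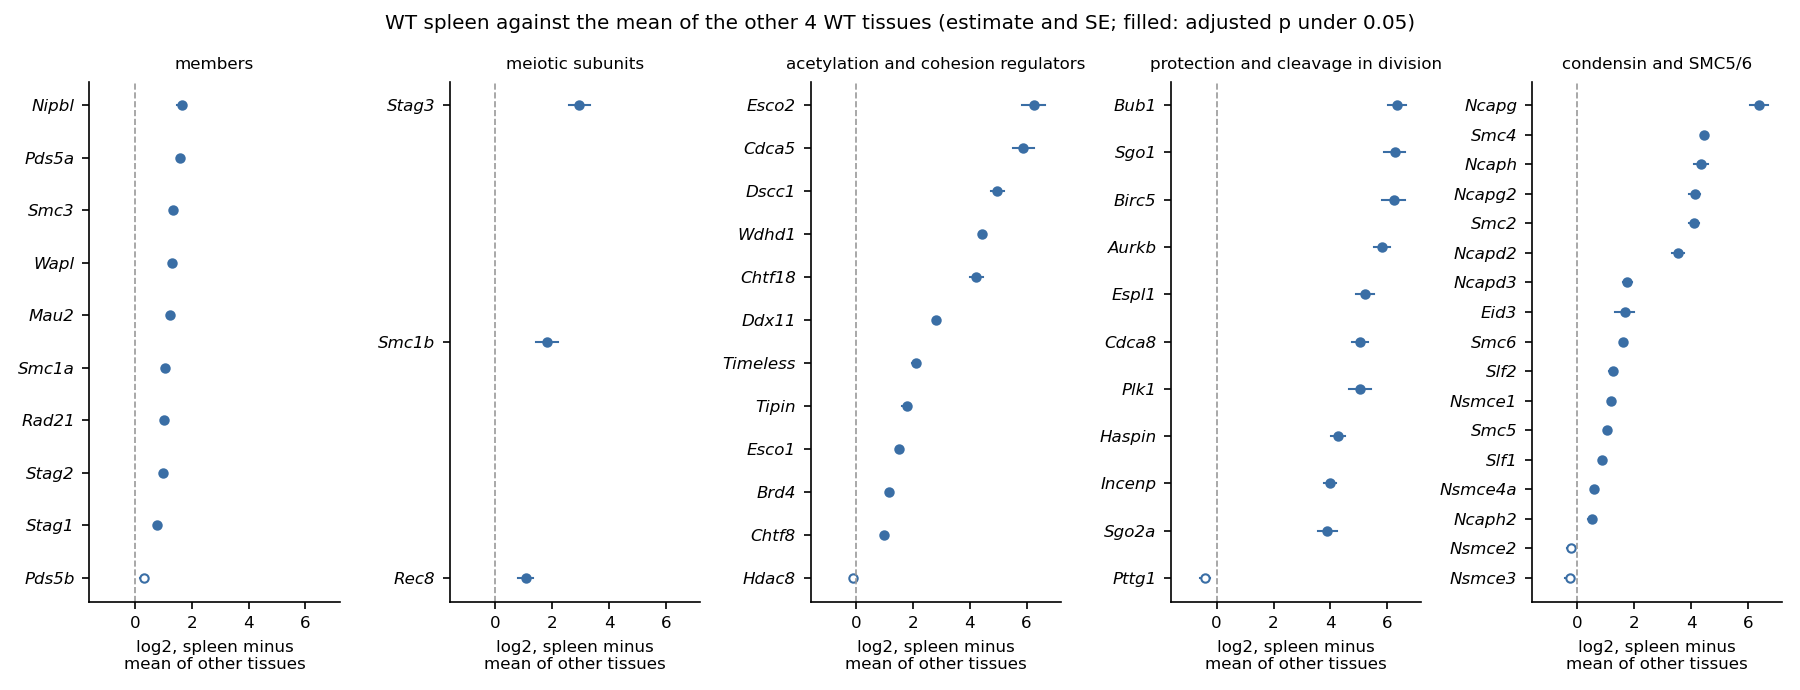
Log2 difference of WT spleen from the mean of the 4 other WT tissues (point, with a bar of 1 SE), for the 10 members and 4 lists of related genes, filled where the adjusted p was under 0.05. Members lie between 0.31 and 1.65, and many genes of chromosome replication and division lie above 4.

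Genes that act on cohesin or beside it were taken from 4 lists of 44 genes. Among 12 genes of cohesin acetylation and cohesion, 11 were called higher in spleen, led by the acetyltransferase Esco2 (6.24), Cdca5, which encodes sororin (5.88), and Dscc1 (4.97), while the deacetylase Hdac8 was at -0.10. Of 11 genes of protection and cleavage in division 10 were called higher, led by the kinase Bub1 (6.33), the protector Sgo1 (6.26) and Birc5 (6.22), and securin, Pttg1, was at -0.40 (adjusted p = 0.0523). In the list of condensin and SMC5/6 subunits 15 of 17 were called higher, led by Ncapg (6.40), Smc4 (4.46) and Ncaph (4.37), and Nsmce2 and Nsmce3 were not called. The medians of these 3 lists were 2.46, 5.06 and 1.62, beside 5.06 for the proliferation markers. Of all tested genes, 38% were called higher in spleen.

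The meiotic counterparts of the subunits were scarce. Stag3 reached 0.228 RPKM in WT spleen and was called higher there (2.95), as was Smc1b (1.81), although Smc1b was at 0.178 RPKM in liver and 0.106 in spleen. Rec8 was the exception in level, at 3.55 ± 0.588 RPKM in kidney (SD, n = 3), 1.62 ± 0.148 in spleen, 1.497 ± 0.131 in brain, 0.871 ± 0.0412 in liver and 0.0637 ± 0.0509 in muscle, so kidney held the highest level of this meiotic kleisin. Rad21l was counted in brain alone, at 0.167 RPKM.

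Over the 30 libraries, 9 members followed the mean of the 10 with Pearson's r between 0.757 and 0.965, and Pds5b with 0.154. Each member is part of that mean, which raises its r. These values are across tissues and share libraries and scaling. The 5 genes whose log2 CPM followed that mean most closely, of 14909 ranked, were Nup160 (r = 0.981), which encodes a nuclear pore subunit, the immunoglobulin heavy-chain segments Ighv5-16 (0.977), Ighv6-3 (0.976) and Ighv1-74 (0.9752), and Topbp1 (0.974), which encodes a replication and DNA damage protein. Each was higher in WT spleen than in the 4 other tissues, Nup160 at 4.70 RPKM there against 0.831 to 1.08. With the mean of each tissue and genotype removed, the r of Pds5b with single members ran from -0.195 for Smc1a to 0.888 for Nipbl. It was also low with Smc3 (0.0385), Rad21 (0.298) and Wapl (0.368), and it was 0.755 to 0.888 with Stag1, Stag2, Nipbl, Mau2 and Pds5a. Those genes, like Pds5b, were lowest in spleen WT replicate 1 and Ctcf het replicate 2. The part of these libraries in the values was not tested.

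Within spleen, the members split into 2 sets by library. In WT replicate 1 and Ctcf het replicate 2, Nipbl was at 7.89 and 7.07 RPKM, against 14.7 to 16.9 in the other 4 libraries. Stag1, Stag2, Mau2, Pds5a and Pds5b were also lower in both than in each of the other 4, whereas Smc1a, Smc3, Rad21 and Wapl lay within the range of the other 4. The 2 libraries also deviated together over genes at large (r = 0.764), so the split was not shown to be particular to the members. The same 2 libraries held the most Hba-a1, a globin gene of red cells, at 30107 and 26018 CPM against 5689 to 18879, and the least Malat1, a nuclear noncoding RNA, at 407 and 347 CPM against 1064 to 1769. Their proliferation markers summed to 2883 and 2742 CPM, within the range of the other 4. Hba-a1 was on a marker list and Malat1 was chosen after its values were seen, and their part in the split was not tested. Smc1a, Smc3 and Rad21 were lowest in another 2 libraries, WT replicate 3 and Ctcf het replicate 1. Smc1a was at 19.5 and 19.1 RPKM there, against 24.0 to 27.0 in the other 4. The proliferation markers also had their lowest sums there, 1484 and 1535 CPM against 2732 to 3623, and their part was not tested. Leaving out WT replicate 1 raised the difference of spleen from the other tissues from 1.65 to 1.89 for Nipbl, from 1.57 to 1.72 for Pds5a and from 0.9998 to 1.14 for Stag2.

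**Figure D4:**
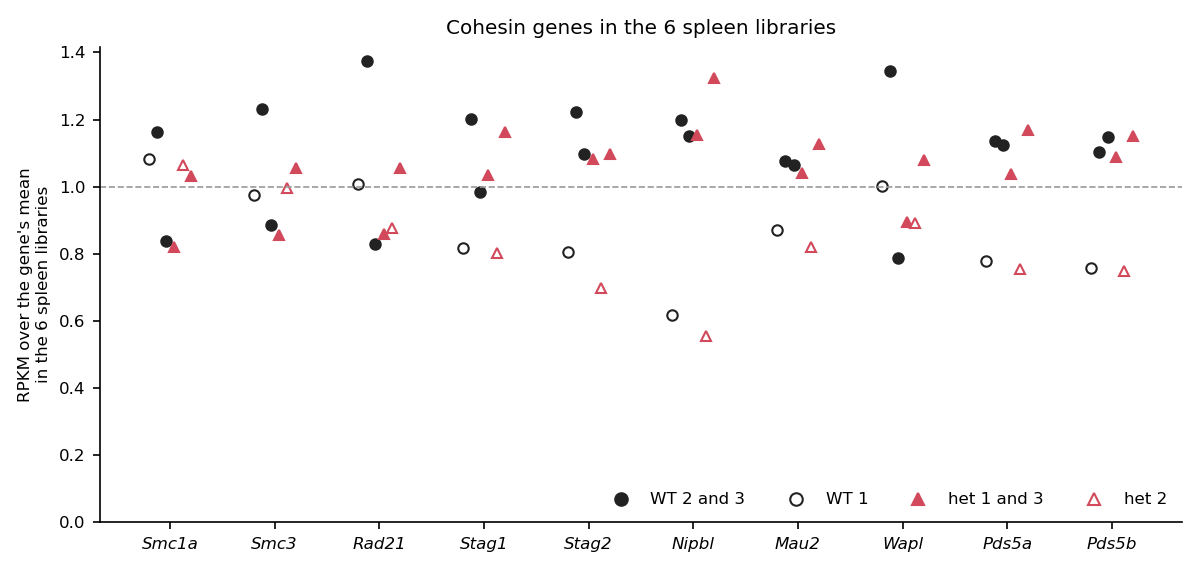
RPKM of each member in the 6 spleen libraries divided by that gene's mean over them, with open symbols for WT replicate 1 and Ctcf het replicate 2. The open symbols are the lowest 2 for Stag1, Stag2, Nipbl, Mau2, Pds5a and Pds5b and lie among the filled ones for Smc1a, Smc3, Rad21 and Wapl.

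Ctcf haploinsufficiency was next compared with WT in each tissue, on CPM scaled by TMM within the tissue. None of the 10 members was called in any tissue by edgeR at an adjusted p under 0.05, a threshold passed by 0.242% of tested genes in spleen, 0.0249% in muscle, 0.0193% in liver, 0.0211% in kidney and 0.0157% in brain. The same test called Ctcf itself in brain (adjusted p = 0.0259) but not in kidney (0.107), muscle (0.250), liver (0.543) or spleen (0.914) although every Ctcf het library was below every WT library in each of them, so the lack of a call does not show that a member did not change. DESeq2 and limma-voom also called 0 members in each tissue. So did edgeR with a replicate block, which over all genes called 22 in brain and 21 in kidney against 3 and 4 without it, Ctcf in kidney among them (adjusted p = 0.0440 against 0.107). DESeq2 called Ctcf in brain (adjusted p = 5.26e-16), kidney (4.76e-07), muscle (0.00422) and liver (0.0486). In spleen, edgeR called Ctcf when all 30 libraries were fitted together (adjusted p = 0.0219). At an unadjusted p under 0.05, edgeR and limma-voom gave 1 member in muscle, Stag2, DESeq2 gave 0, and all 3 tools gave 0 in the other tissues. The same unadjusted threshold was passed by 3.52% of tested genes in spleen, 6.45% in muscle, 4.56% in liver, 6.44% in kidney and 2.96% in brain. The groups did not overlap for 2 members in muscle (12.2% of tested genes), 1 in brain (7.83%), 0 in spleen (6.64%), 0 in liver (8.99%) and 0 in kidney (11.4%).

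The 50 differences between genotypes, 10 genes in 5 tissues, lay between -0.19 for Rad21 in spleen and 0.29 for Pds5b in muscle on the log2 scale. In terms of mean CPM, Ctcf het libraries stood at 87.5% to 122% of WT. Of the 95% intervals, 49 of 50 included 0, and 46 of 50 lay wholly above the estimate for Ctcf in the same tissue, all 10 in each tissue but spleen, where 6 of 10 did. Widths of these intervals bound what could be seen: 0.810 to 1.80 in spleen, 0.434 to 0.748 in muscle, 0.532 to 0.776 in liver, 0.351 to 0.812 in kidney and 0.255 to 0.651 in brain. A change of the size of that in Ctcf, between -0.57 and -0.70, was thus outside the interval for every member in 4 tissues.

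**Figure D5:**
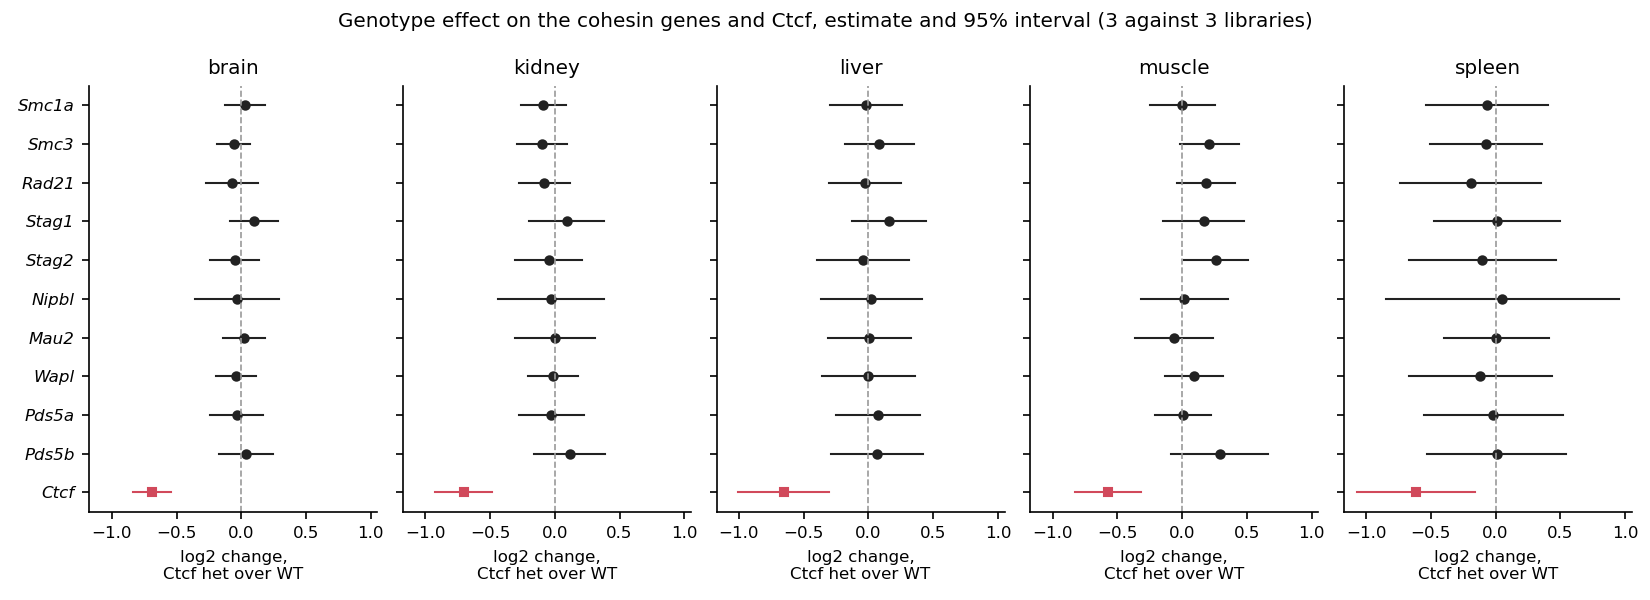
Log2 change of Ctcf het over WT for the 10 members (black circles) and Ctcf (red squares), with 95% intervals from edgeR, 3 against 3 libraries per tissue. Intervals of members include 0 except for Stag2 in muscle, and spleen has the widest.

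Among the ring subunits, Smc3 alone had groups that did not overlap, in brain and in muscle, with TMM within the tissue. In brain it was at 55.8, 56.3 and 55.5 CPM in WT and at 52.5, 54.8 and 53.6 in Ctcf het, a log2 difference of -0.06 ± 0.06 SE. In muscle it was at 19.7, 19.4 and 18.9 CPM in WT and at 24.5, 21.8 and 20.8 in Ctcf het, a difference of 0.21 ± 0.10 SE (adjusted p = 0.806 by edgeR). On this scale all Ctcf het libraries were below WT in brain and above WT in muscle. The brain groups overlapped with TMM over 30 libraries, at 7.13, 7.26 and 6.98 RPKM in WT and 6.89, 7.53 and 7.10 in Ctcf het, and the Smc3 difference in brain was 0.010 when all 30 libraries were fitted together. Rad21 in muscle was at 46.6, 50.1 and 52.9 CPM in WT and 61.6, 52.2 and 56.1 in Ctcf het, which overlap (0.18 ± 0.10 SE). Smc1a lay between -0.09 and 0.03 in the 5 tissues.

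Stag2 in muscle was at 44.6, 51.3 and 52.9 CPM in WT and at 65.2, 54.8 and 58.6 in Ctcf het, a difference of 0.26 ± 0.11 SE with an unadjusted p of 0.0382 and an adjusted p of 0.725 by edgeR. The 3 Ctcf het libraries were above the 3 WT libraries. Across the alternatives this difference lay between 0.19 and 0.31, and its unadjusted p was under 0.05 in 7 of 14. In the other tissues Stag2 lay between -0.10 and -0.04. Stag1 was at a positive value in all 5 tissues, from 0.01 in spleen to 0.17 in muscle, with overlapping groups in each.

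For the loaders, the largest difference of either sign was that of Mau2 in muscle, -0.06 ± 0.13 SE. Nipbl lay between -0.03 and 0.05. In spleen its interval ran from -0.85 to 0.95, the widest of all 50, and 1 library of each genotype was low, at 101 CPM in WT against 194 and 178, and at 89.7 in Ctcf het against 186 and 214. Without these 2 libraries the spleen difference was 0.09 for Nipbl (adjusted p = 0.957 by edgeR), and the 10 members lay between -0.20 for Rad21 and 0.09.

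Of the release factors, Pds5b in muscle had the highest estimate of the 50. It was at 21.4, 27.4 and 34.0 CPM in WT and at 32.2, 32.9 and 36.2 in Ctcf het, so the groups overlapped through WT replicate 3, and the difference was 0.29 ± 0.16 SE (adjusted p = 0.859 by edgeR). Without that library the difference was 0.47 with an adjusted p of 0.388, the lowest adjusted p of any member in any alternative. In brain, its highest tissue, Pds5b was at 106, 93.5 and 113 CPM in WT and at 97.3, 107 and 116 in Ctcf het. Wapl and Pds5a lay between -0.12 and 0.09 in the 5 tissues.

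The medians of the 10 differences were -0.042 in spleen, 0.132 in muscle, 0.015 in liver, -0.029 in kidney and -0.034 in brain, against medians over all tested genes between -0.011 and 0.0002. In muscle 9 of 10 members had a positive value, which is a count of uncalled differences in the same 6 libraries. The summed RPKM of the 10 genes in muscle was 64.3 to 73.8 in WT and 74.0 to 84.5 in Ctcf het libraries. The nearest libraries of the 2 genotypes were at 73.81 and 73.97, and in every other tissue the sums of the genotypes overlapped. A joint change of the members was not tested. Scaling by total counts changed the sign of the median in spleen, to 0.009, and raised that in liver to 0.075 with all 10 values positive. Markers of other tissues also moved with genotype: in muscle, the 8 kidney markers, all detected, summed to 10.22 to 74.62 CPM in WT and 0.151 to 5.679 in Ctcf het, and the pancreas and fat markers (6 of 9 detected in WT, 7 in Ctcf het) to 176.8 to 334 and 366.8 to 690.5. In spleen, the liver markers summed to 34.96 to 40.3 CPM in WT (8 of 8 detected) and to 0.09848 to 0.3314 in Ctcf het (5 of 8), and the kidney markers to 1.219 to 2.662 (5 of 8) and 15.64 to 29.21 (8 of 8). In kidney, the 10 brain markers, all detected, summed to 111.9 to 141.3 CPM in WT and 74.01 to 90.27 in Ctcf het. Their part in the values of the members was not tested.

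A fit of all 30 libraries with tissue as a term gave the genotype effect shared by the tissues. It takes the libraries as independent although 6 mice gave all 30, so its p-values may be too small. Here 0 of 10 members were called by edgeR, DESeq2 or limma-voom, and 0 had an unadjusted p under 0.05 in each tool, beside 0.194% of tested genes called and 5.91% under the unadjusted threshold in edgeR. With the mouse as a random effect in limma-voom, under the assumption that a replicate number marks the same animal in every tissue, 0 members were called as well. The shared difference for Ctcf was -0.63 (adjusted p = 4.00e-07). Stag1 was at 0.12 ± 0.065 SE (unadjusted p = 0.0663, adjusted p = 0.917 by edgeR), higher in 5 of 5 tissues, and Pds5b at 0.12 ± 0.074, also higher in 5 of 5. Across 42 alternatives the unadjusted p was under 0.05 in 6 for Stag1 and in 1 for Pds5b. The 8 other members lay between -0.019 for Rad21 and 0.029 for Smc3. No member was called for a genotype effect that differed between tissues, with every adjusted p at 1 and 0 members under an unadjusted p of 0.05 in edgeR, against 0.758% of tested genes called.

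The balance between partners was also compared by genotype, as 6 ratios in 5 tissues with an exact 2-sided permutation test. With 3 against 3 libraries the smallest possible p is 0.1. Of 30 comparisons 2 reached it. The log2 ratio of Stag2 to Stag1 in kidney was 1.62, 1.64 and 1.67 in WT and 1.45, 1.4998 and 1.56 in Ctcf het, a difference of -0.14. Pds5b over Pds5a in brain was 2.22, 2.18 and 2.20 in WT and 2.25, 2.28 and 2.29 in Ctcf het, a difference of 0.07. No ratio could pass a threshold of 0.05 in this design, before or after adjustment over the 30 comparisons (lowest adjusted p of 0.923 in these exact tests), so the tests say nothing either way.

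The related lists gave no call by genotype either. Not all of the 44 genes passed the filter on low counts in each tissue, and in muscle 0 of 4 meiotic subunits did. Of those tested, 0 were called in any tissue by edgeR, beside 0.0157% of all tested genes in brain to 0.242% in spleen. The shared fit tested all 44 and called 0, and there Rec8 alone had an unadjusted p under 0.05, at a lower level in Ctcf het. In liver and spleen, no listed gene was under that unadjusted p. In brain Rec8 was at -0.57 and the SMC5/6 subunit Nsmce4a at -0.19, both under an unadjusted p of 0.05. In kidney, where 6.44% of all tested genes were under it, so were 7 listed genes, all at higher estimates in Ctcf het: the kinases Plk1 (1.02) and Bub1 (0.88), the protector Sgo2a (1.16), separase, Espl1 (0.70), Cdca8 (0.57), Esco2 (1.01) and the condensin subunit Ncaph (0.73). In the same kidney libraries 5 of the 14 proliferation markers were under that unadjusted p, also at higher estimates: Mki67 (1.13), Ccnb2 (1.05), Top2a (0.95), Cdk1 (0.91) and Ube2c (0.82). The median of the 14 was 0.52 and none was called. The sum of the 14 was 161.8 to 165 CPM in WT and 164 to 210.5 in Ctcf het, and its part in the 7 genes was not tested. In muscle Bub1 and Esco2 were under that unadjusted p on very few counts: Bub1 had 1, 2 and 0 counts in the WT libraries and 10, 17 and 12 in Ctcf het, and Esco2 had 7, 6 and 2 in WT and 10, 20 and 20 in Ctcf het. With so few counts in WT no fold is given, and neither gene was called (adjusted p = 0.261 and 0.519 by edgeR).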

How the data were processed

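The deposited tables, 1 per tissue, hold raw counts of fragments for 48709 genes. The authors made them with featureCounts 1.5.0-p3 from paired-end alignments of an intron retention pipeline (IRFinder), on the exons of Ensembl release 86 (GRCm38), without strand and without fragments that map to several places or genes, per the file headers. FastQC, STAR and DESeq2 are named in the submitters' processing notes; the use made of each is not given in the sources used here. TRIzol extraction was followed by removal of DNA, per the labels' protocols, and the RNA integrity number was over 7.

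Replicates of a group differed by far more than sampling noise (chi-square per degree of freedom of 15.4 or more), so each library was counted as 1 sample. Tests across genes used edgeR 4.0.16 in R 4.3.3: filterByExpr, TMM, quasi-likelihood F-tests and Benjamini-Hochberg adjustment over all genes tested, called at an adjusted p under 0.05. Genotypes were compared in the 6 libraries of each tissue and in 1 fit of 30 libraries with tissue as a term, and tissues in the 15 WT libraries. The 30 comparisons of ratios used an exact permutation test, adjusted over the 30. DESeq2 1.42.0, limma-voom (limma 3.58.1), other scalings and filters, a replicate block and leaving out single libraries were alternatives. SEs of log2 values are those of the edgeR fits. The scripts were tested on simulated counts with 200 changed genes per comparison. Of genes changed 2-fold between genotypes, 0% were called in spleen, 79% in liver, 81.5% in muscle, 91.5% in kidney and 99% in brain. Of those changed 1.5-fold, 0% were called in spleen and in muscle, 0.5% in liver, 33% in kidney and 73% in brain. The members and gene lists were chosen with earlier results of these data known. All members are named throughout, and of the related lists any gene called by genotype, up to 3 per list with the largest difference of spleen, and those the text singles out, chosen after their values were seen. Likeness of genes is Pearson's r of log2(CPM + 0.5) over genes with a mean CPM of at least 1. In brain and kidney, libraries with the same replicate number deviated together (r of at least 0.207 and 0.19 in every pair), and in liver, muscle and spleen the lowest r was 0.0512, 0.0829 and -0.472; whether a number marks 1 mouse is not given in the sources used here.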

Additional observations from a re-analysis of the deposited data

Results flagged for a closer look

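With TMM within each tissue, Smc3 had genotype differences of opposite sign in brain and muscle. On that scale all 3 Ctcf het brain libraries were below all 3 WT libraries, and all 3 Ctcf het muscle libraries were above all 3 WT libraries. The muscle difference minus the brain difference was 0.22 ± 0.16 SE on the log2 scale in the fit of 30 libraries, which is scaled over all tissues and puts the brain difference at 0.010 for Smc3, with overlapping brain groups. The test of that difference by edgeR gave an unadjusted p of 0.191 and an adjusted p of 1, with 13 of 24262 genes called, so opposite effects were not shown. Groups of 3 libraries are too small to be tested for single outlying libraries.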

How the results depend on the processing

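No member was called for genotype under any alternative in any tissue, in the shared fit or for differing effects, and the counts of members called between WT tissues that are not named here stayed within 1.5 times. With the replicate block, 0 members were called in each tissue; over all genes the block gave 22 calls against 3 in brain, 21 against 4 in kidney, 7 against 3 in liver, 118 against 4 in muscle and 0 against 45 in spleen, and it changed no other call of a member than that of Pds5b in spleen against the other tissues. For all genes, DESeq2 called 187 in spleen, 159 in muscle, 73 in liver, 164 in kidney and 28 in brain. Without spleen WT replicate 1 and Ctcf het replicate 2, chosen after seeing the data, spleen had 0 members called, 0 of them at an unadjusted p under 0.05, and 0 calls over all genes.

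Total counts gave 10 members between kidney and liver and 9 between kidney and muscle, against 4 each, and keeping genes with at least 1 count gave 2 between kidney and liver. Leaving out single libraries gave 4 to 8 for brain against kidney, 2 to 4 for kidney against liver and 3 to 4 for kidney against muscle. The shares of all tested genes called in these fits are not given here, so the counts do not set the members apart. Total counts also moved the medians of all tested genes for kidney against liver and against muscle, as given above. Under total counts, 21 values reversed, that is, changed sign while being called with TMM, with total counts or with both. Some were near 0 and not called with TMM, such as kidney minus muscle for Smc3 (-0.03). Brain minus liver was 0.98 for Smc1a, 0.63 for Stag1, 0.49 for Stag2 and 0.53 for Pds5a. Brain minus muscle was 0.78 for Stag1, 0.39 for Stag2, 1.01 for Nipbl, 0.47 for Wapl and 0.78 for Pds5a. Kidney minus liver was 0.48 for Smc1a, 0.83 for Stag1, 0.85 for Stag2, 0.78 for Nipbl, 0.61 for Mau2 and 0.49 for Wapl. Kidney minus muscle was 1.13 for Smc3, 0.98 for Stag1, 0.75 for Stag2, 1.16 for Wapl and 0.13 for Pds5b, and muscle minus spleen was -1.29 for Pds5b. The biological coefficient of variation was 0.332 in spleen and 0.121 in brain, with at least 723 counts per member and library.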

Other observations

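Ctcf, like 9 of the members, had its highest level in spleen. It was at 29.0 ± 3.92 RPKM in WT spleen (SD, n = 3) and at 9.99 ± 0.299 in brain, 9.70 ± 0.568 in kidney, 8.52 ± 0.502 in liver and 10.5 ± 0.720 in muscle. In Ctcf het spleen it was at 18.7 ± 3.50 RPKM, and each of those libraries (19.2, 14.997 and 21.9) lay above each WT library of the 4 other tissues. Ctcf het levels in those tissues were 6.51 ± 0.415 in brain, 5.96 ± 0.520 in kidney, 5.46 ± 1.09 in liver and 7.14 ± 0.704 in muscle.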
